A study of Mus musculus with 13 samples.

Results

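The H3K27ac landscape around 8 genes of the BCL2 family was followed in 9 mouse melanoma cell lines. The 8 genes, out of 21938 annotated protein-coding genes, were chosen by name: the pro-survival genes Bcl2, Bcl2l1 and Mcl1, the BH3-only genes Bcl2l11, Bbc3 and Pmaip1, and the pore-forming effectors Bax and Bak1. H3K27ac, acetylation of lysine 27 of histone H3, marks active promoters and enhancers. Each line gave 1 list of H3K27ac ChIP–seq peaks on the mouse genome GRCm38 (mm10).

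The lines came from melanomas of mice that carried Tyr::NRAS Q61K, an oncogenic NRAS driven in melanocytes by the tyrosinase promoter, on a Cdkn2a+/- background with floxed Cdh1 (Cdh1F/F), backcrossed to C57BL/6J. Lines labelled ΔEcad also carried Tyr::CreA, a Cre under the tyrosinase promoter that deletes Cdh1 (E-cadherin) in melanocytes, and lines labelled Ecad did not. There were 3 female ΔEcad lines (Ma_1057, Ma_1064 and Ma_1069), 2 female Ecad lines (Ma_1014 and Ma_1039), 2 male ΔEcad lines (Ma_1062 and Ma_1456) and 2 male Ecad lines (Ma_1007 and Ma_1181), all untreated. Each line was grown and measured once, so the spread between lines was the only error available, and which lines, if any, shared a mouse is not given in the sources used here. The labels set E-cadherin loss against its presence in each sex. In other experiments, not measured by these lists, the study assayed the death of unattached melanoma cells when the receptor GRPR was activated.

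The BCL2 family sets the threshold for the mitochondrial route of apoptosis. Pro-survival proteins hold the effectors Bax and Bak1 in check, BH3-only proteins are induced or released by stress and relieve that check, and the effectors then open pores in the outer mitochondrial membrane. Cells that lose attachment can die by the same route, a death called anoikis, in which the BH3-only protein Bim, encoded by Bcl2l11, is a known trigger. Melanocytes depend on Bcl2 for their survival, and melanomas commonly carry high levels of Mcl1 and of Bcl-xL, the product of Bcl2l1.

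For each gene, the covered length is the number of kb under peaks within the gene body and 10 kb on each side. A promoter call means that at least 1 peak came within 1 kb of one of the gene's transcription start sites (TSS). The strength of a peak was its percentile by −log10 q within its own list. The lists held 20741 to 41663 peaks and covered 29.5 to 67.2 Mb, and the 3 female ΔEcad lists covered 29.5, 34.2 and 39.5 Mb against 37.1 to 67.2 Mb in the other 6. With the whole lists and these windows, every protein-coding gene was tested in the same way, and the share of all genes that passed is given beside the counts. As a check of the label melanoma, the promoters of Sox10, Mitf, Dct, Tyr and Pmel were called in all 9 lists. Those of Ptprc, Pecam1, Krt14 and Krt5 were called in 0 lists, and that of Pdgfra in 1 list, from line Ma_1007. The Cdh1 promoter was called in 0 lists of either genotype, with 1.92 to 7.85 kb covered in the ΔEcad lists and 5.78 to 8.79 kb in the Ecad lists, so these lists do not check the deletion.

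The sequences of 4 promoters and 3 elements away from a TSS are shown because the results turn on them. RefSeq held a promoter entry for 7 of the 8 genes. The printed promoters are the 250 bases before the most upstream RefSeq start of Bcl2, whose marking varied widely between lines, of Mcl1 and Bbc3, which had a promoter call in every list, and of Bcl2l11, which had one in male Ecad lines. A call can rest on a peak near another annotated start. Only lines Ma_1014, Ma_1007 and Ma_1181, all Ecad, had a peak over the printed Bcl2 bases. Lines Ma_1057, Ma_1064, Ma_1069 and Ma_1039 had no peak over the printed Bbc3 bases. Of the male Ecad lines, Ma_1007 but not Ma_1181 had a peak over the printed Bcl2l11 bases. The other 3 are the 300 bases centred on the strongest summit of an intronic element of Bcl2, an element upstream of Mcl1 that was called in every list, and an element upstream of Bcl2l11. All are from GRCm38.p6, and none overlaps an annotated exon. Capitals mark matches, on either strand, to 7 motifs: the GC box GGGCGG, the CCAAT box, the M-box core CATGTG, the AP-1 motif TGANTCA, the FOXO motif GTAAACA, the CRE core TGACGT, and the p53 half-site, searched under its usual degenerate form.
Bcl2 promoter, chr1:106714291-106714540, minus strand: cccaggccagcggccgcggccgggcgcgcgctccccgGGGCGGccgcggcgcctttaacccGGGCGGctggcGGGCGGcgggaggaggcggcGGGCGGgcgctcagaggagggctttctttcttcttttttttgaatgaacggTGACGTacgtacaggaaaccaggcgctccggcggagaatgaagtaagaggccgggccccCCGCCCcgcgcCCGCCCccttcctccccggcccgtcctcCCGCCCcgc
Mcl1 promoter, chr3:95658471-95658720, plus strand: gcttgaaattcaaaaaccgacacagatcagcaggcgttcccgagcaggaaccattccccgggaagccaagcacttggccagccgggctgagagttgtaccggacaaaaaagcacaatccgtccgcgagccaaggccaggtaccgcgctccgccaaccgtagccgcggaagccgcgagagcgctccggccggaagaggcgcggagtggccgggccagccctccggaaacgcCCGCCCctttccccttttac
Bcl2l11 promoter, chr2:128125788-128126037, plus strand: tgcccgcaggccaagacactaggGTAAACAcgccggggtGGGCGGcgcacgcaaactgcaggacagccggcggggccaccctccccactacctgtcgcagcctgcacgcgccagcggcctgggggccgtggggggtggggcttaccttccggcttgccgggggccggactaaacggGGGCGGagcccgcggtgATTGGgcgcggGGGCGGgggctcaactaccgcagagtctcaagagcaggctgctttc
Bbc3 promoter, chr7:16309333-16309582, plus strand: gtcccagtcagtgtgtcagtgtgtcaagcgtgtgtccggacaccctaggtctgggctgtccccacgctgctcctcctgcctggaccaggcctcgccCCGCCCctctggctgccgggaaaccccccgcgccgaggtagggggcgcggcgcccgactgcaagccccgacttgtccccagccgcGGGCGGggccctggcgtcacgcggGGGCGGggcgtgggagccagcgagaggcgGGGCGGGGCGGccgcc
Bcl2-e13, chr1:106700200-106700499, plus strand: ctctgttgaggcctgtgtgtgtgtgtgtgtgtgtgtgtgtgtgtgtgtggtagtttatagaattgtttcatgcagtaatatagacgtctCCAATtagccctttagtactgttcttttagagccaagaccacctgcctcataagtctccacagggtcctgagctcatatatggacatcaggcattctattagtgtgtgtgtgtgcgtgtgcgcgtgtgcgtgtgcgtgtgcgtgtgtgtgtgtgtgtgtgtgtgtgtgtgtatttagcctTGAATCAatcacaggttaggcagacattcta
Mcl1-e1, chr3:95650889-95651188, plus strand: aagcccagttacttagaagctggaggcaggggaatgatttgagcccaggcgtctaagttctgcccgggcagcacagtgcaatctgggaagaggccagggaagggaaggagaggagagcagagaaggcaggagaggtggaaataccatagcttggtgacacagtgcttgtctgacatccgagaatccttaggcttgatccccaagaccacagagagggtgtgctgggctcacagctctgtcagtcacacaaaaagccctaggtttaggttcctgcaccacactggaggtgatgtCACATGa
Bcl2l11-e1, chr2:128115466-128115765, plus strand: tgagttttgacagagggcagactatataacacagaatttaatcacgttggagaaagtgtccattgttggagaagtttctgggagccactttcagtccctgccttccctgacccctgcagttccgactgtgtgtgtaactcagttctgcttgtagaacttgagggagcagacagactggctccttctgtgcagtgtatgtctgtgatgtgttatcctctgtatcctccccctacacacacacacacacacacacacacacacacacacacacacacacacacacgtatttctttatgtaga

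The Bcl2 promoter held 7 GC boxes, the Bbc3 promoter 5, the Bcl2l11 promoter 3 and the Mcl1 promoter 1, some of them overlapping, against at least 1 in 32.7% of the 32841 RefSeq promoters of the same length. The Bcl2l11 promoter also held 1 FOXO motif, present in 3.17% of promoters, and 1 CCAAT box, present in 33.9%. The Bcl2 promoter held 1 CRE core, present in 6.47% of promoters. Of the elements, the intronic Bcl2 window held 1 CCAAT box and 1 AP-1 motif, the Mcl1 window held 1 M-box core, and the Bcl2l11 window held 0 of the 7. Over the 59643 windows of 300 bases cut in the same way from all merged regions, 30.6% held a CCAAT box, 9.20% an AP-1 motif and 19.4% an M-box core. A p53 half-site was found in 0 of the 4 printed promoters and in 7.13% of all promoters. These matches describe the letters of the windows and say nothing about binding.

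Across the 9 lists, 5 of the 8 promoters were called in every list (Bcl2l1, Mcl1, Bbc3, Bax and Bak1), 1 in 8 lists (Bcl2), 1 in 2 lists (Bcl2l11) and 1 in a single list (Pmaip1). Among all 21938 genes, 21.1% had a promoter called in all 9 lists, 47.1% in 0 lists and 5.43% in 8 lists. The 3 pro-survival genes ranked high by covered length, whether in long peaks or in separate ones. Bcl2l1 was covered by 39.5 kb on average and stood at percentile 99.8 of the mean covered length of 15380 genes with a peak, Bcl2 at 97.9 and Mcl1 at 94.4. The BH3-only genes spread widely, with Bbc3 at percentile 86.2, Bcl2l11 at 50.1 and Pmaip1 at 5.41. The effectors Bax and Bak1 stood at 88.7 and 79.6. Longer windows can hold more peaks, and the windows ran from 24.4 kb (Mcl1) to 196 kb (Bcl2).

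**Figure D1:**
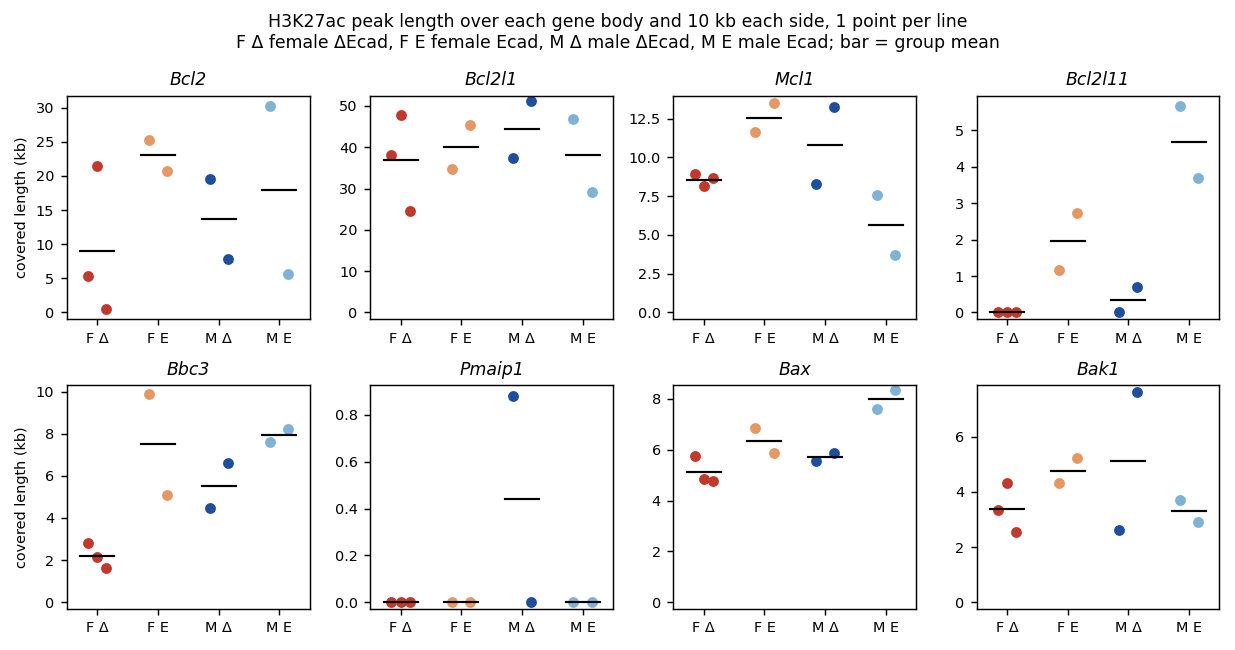
Covered length in kb (y axis, from 0, its own scale per gene) over each gene body and 10 kb each side, with 1 point per line and a bar at the mean of each group on the x axis. The 3 female ΔEcad points for Bbc3 sit between 1.64 and 2.80 kb, under the other 6 lines, while the points for Bcl2l1 and Bak1 mix.

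Bcl2l1 (ENSMUSG00000007659.18, chr2:152780668-152831728, minus strand) was the most heavily marked of the family. It encodes Bcl-xL, which binds BH3-only proteins and the effectors. Its covered length was 38.1, 47.9 and 24.5 kb in female ΔEcad, 34.7 and 45.3 kb in female Ecad, 37.5 and 51.2 kb in male ΔEcad, and 47.0 and 29.1 kb in male Ecad. The groups overlapped throughout. The TSS peak lay at percentile 82.6 or above in every list and reached 99.9 in line Ma_1007. All of the marking fell in 2 regions, called in all 9 lists. The first, at chr2:152797155-152832039, held the TSS and was 34885 bp wide, and 19976 to 34043 bp of it were covered in each list. The second, at chr2:152779359-152796817, lay over the 3′ part of the gene and was covered for 4459 to 17137 bp.

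Bcl2 (ENSMUSG00000057329.7, chr1:106538178-106714274, minus strand), the founding member and a guardian of melanocytes, was the most variable of the genes with at least 2 kb covered on average, with a coefficient of variation of 69.0%. The covered length was 5.28, 21.4 and 0.50 kb in female ΔEcad and 25.3 and 20.7 kb in female Ecad. It was 19.5 and 7.87 kb in male ΔEcad and 30.3 and 5.62 kb in male Ecad. Lines with little and lines with much marking were thus found in both sexes and both genotypes, except that both female Ecad lines were high. Line Ma_1069 had a single Bcl2 peak of 500 bp at percentile 36.6 and no TSS peak. In the other 8 lists the strongest peak within 1 kb of either annotated start ranged from percentile 23.8 (line Ma_1456) to 98.5 (line Ma_1062). The top of that range rests on the 1 kb limit, since the peak of line Ma_1062 began 2.00 kb inside the gene, within reach of the inner start, while its peak at the 5′ end stood at percentile 54.2. A like peak of line Ma_1039, which began 2.18 kb inside at percentile 96.8, fell just outside the limit, and its TSS peak stood at 65.4. The promoter printed above lay inside the region chr1:106706177-106715257, which spanned the TSS and the start of the first intron and was covered for 500 to 8469 bp. The printed bases themselves were under a peak only in lines Ma_1014, Ma_1007 and Ma_1181.

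The rest of the Bcl2 marking was intronic, in 13 regions scattered over the long gene body. The widest was chr1:106695324-106703903, centred 14.7 kb inside the gene, whose strongest summit is the printed intronic window. It was called in 8 lists, all but line Ma_1069, and covered 8432 bp in line Ma_1007 but 1232 bp in line Ma_1181, both male Ecad. Beyond it, chr1:106626766-106631985 was called in 5 lists at a mean percentile of 71.3, and chr1:106602301-106603553 in line Ma_1007 alone at percentile 58.4. Of the 14 regions of the gene, 5 were called in a single list. Over the 9 lines, the covered lengths on other chromosomes that ran closest to that of Bcl2, out of 6037 genes compared, were those of Pknox1 (r = 0.97), Tank (r = 0.96) and Pdzd2 (r = 0.94). Line Ma_1007, with the longest list (67.2 Mb), had the longest Bcl2 coverage, and line Ma_1456, with the next longest (48.3 Mb), had 7.87 kb. The part of list length in these correlations was not tested.

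Mcl1 (ENSMUSG00000038612.16, chr3:95658788-95663176, plus strand) encodes a short-lived pro-survival protein. It was covered for 8.91, 8.14 and 8.64 kb in female ΔEcad and for 11.6 and 13.5 kb in female Ecad. In male ΔEcad it was covered for 8.27 and 13.3 kb, and in male Ecad for 7.60 and 3.73 kb. Female ΔEcad lines therefore lay below female Ecad lines, while male ΔEcad lines lay above male Ecad lines. The mean difference was -4.00 kb in females and 5.11 kb in males, and the difference between them of -9.11 kb gave p = 0.050 in an exact two-sided permutation of sex within genotype (60 arrangements). Of all genes, 3.08% separated in these directions and 4.73% in opposite directions in the 2 sexes, either way round, and per Mb of list the p was 0.20. Its TSS region, chr3:95657919-95669517, and the upstream element of the printed window, chr3:95649651-95652761, were called in all 9 lists. The upstream element had a mean percentile of 84.1, above the 77.1 of the TSS region, and was lowest in line Ma_1181 at percentile 38.4. Another region, chr3:95672284-95677714, lay at the promoter of Adamtsl4.

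**Figure D2:**
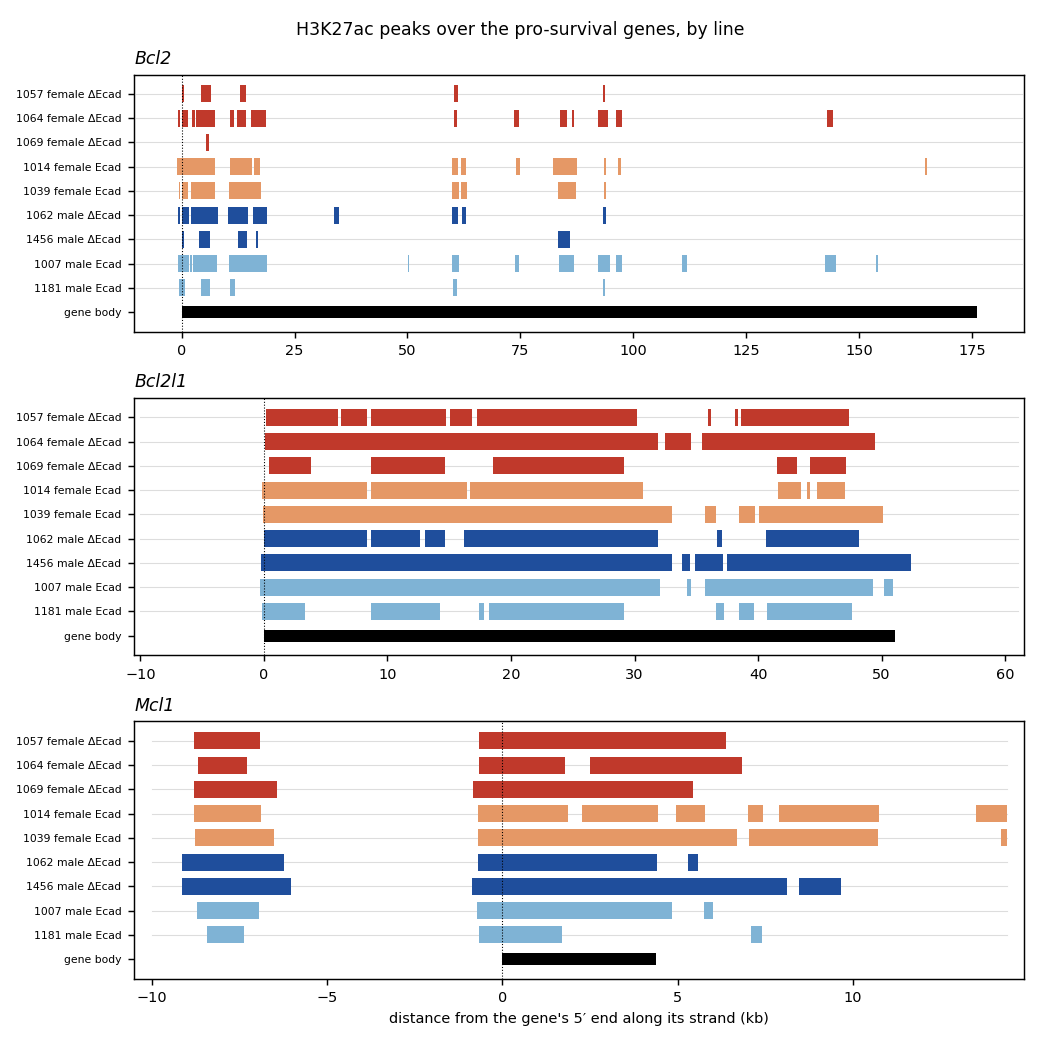
Peaks over the pro-survival genes (bars, coloured by group, 1 row per line) against the distance in kb from the 5′ end along the gene's strand, with the gene body in black. Bcl2l1 is covered over most of its body in every line except Ma_1069. Bcl2 carries separate intronic peaks, of which line Ma_1069 has 1, and Mcl1 has an upstream peak in all 9 lines.

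Bcl2l11 (ENSMUSG00000027381.16, chr2:128126038-128162547, plus strand), which encodes Bim, separated the genotypes. No peak lay in its window in 4 of the 5 ΔEcad lists, and line Ma_1456 had 0.702 kb. The Ecad lists had 1.18 and 2.72 kb in females and 5.67 and 3.70 kb in males. All 4 Ecad lines thus exceeded all 5 ΔEcad lines. The means were 0.140 ± 0.314 kb (SD, n = 5) in ΔEcad and 3.32 ± 1.88 kb (SD, n = 4) in Ecad, a difference of -3.18 kb (exact two-sided permutation test, p = 0.0079, the smallest that 126 splits allow). A separation with ΔEcad lower was seen in 6.39% of the 15380 genes tested, and the adjusted p over all of them was 0.21. Per Mb of list, the values were 2.91 ± 6.5 and 65.1 ± 29.5 bp, again without overlap (exact permutation p = 0.0079), where 2.63% of all genes separated in that way.

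The Bcl2l11 promoter was called in both male Ecad lists, at percentiles 66.7 (line Ma_1007) and 63.3 (line Ma_1181), and in none of the other 7. These percentiles belong to different peaks. That of line Ma_1007 lay at the 5′ end, and that of line Ma_1181 began 1.59 kb inside the gene, near an inner start. The peak of line Ma_1181 at the 5′ end stood at percentile 38.7. Across all genes 3.45% were called in 2 lists, whichever lists these were. The share called in the male Ecad lists alone is not given here. In the female Ecad lines the marking lay elsewhere. The 6 regions of the gene were small, 885 to 1815 bp wide. Those at the TSS, chr2:128125570-128127384 and chr2:128127625-128128509, and an intronic one at chr2:128133364-128134973 were called in lines Ma_1007 and Ma_1181 alone. One 4.77 kb inside the gene, chr2:128130219-128131395, was called in both female Ecad lines and line Ma_1007, at percentiles of 34.2 to 44.5. The upstream region of the printed window, chr2:128114668-128116431, lay within the body of Acoxl and was called in all 4 Ecad lines and in line Ma_1456, at percentiles of 22.6 to 65.5. Most of that region lies outside the 10 kb flank, so line Ma_1014 had it called with 0 kb of it inside the window. No region of the gene was called in female ΔEcad lists or in line Ma_1062.

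Bbc3 (ENSMUSG00000002083.13, chr7:16308393-16318205, plus strand) encodes Puma, a BH3-only protein induced by p53. Its promoter was called in all 9 lists. It was covered for 2.80, 2.15 and 1.64 kb in female ΔEcad, 9.88 and 5.11 kb in female Ecad, 4.47 and 6.60 kb in male ΔEcad, and 7.62 and 8.23 kb in male Ecad. The 3 female ΔEcad lines lay below all the others, and within males, too, both ΔEcad lines lay below both Ecad lines. Female ΔEcad lines averaged 2.2 ± 0.58 kb (SD, n = 3) against 6.99 ± 2.02 kb (SD, n = 6) in the other lines, a difference of -4.79 kb (exact two-sided permutation test, p = 0.012, the smallest that 84 splits allow). Of all genes, 21.9% separated in the same way, and the adjusted p was 0.091. Per Mb of list, the means were 64.0 ± 15.6 and 150 ± 46.8 bp (exact permutation p = 0.036), where 13.5% of all genes passed with female ΔEcad lower. Over both sexes, ΔEcad lines had 3.53 ± 2.02 kb (SD, n = 5) and Ecad lines 7.71 ± 1.98 kb (SD, n = 4; exact permutation p = 0.032), and the p rose to 0.071 per Mb of list.

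The Bbc3 peaks were also weaker within their lists in female ΔEcad lines. The TSS peak stood at percentiles 60.5, 66.1 and 33.8 there, at 87.5 and 80.0 in female Ecad, at 77.1 and 89.2 in male ΔEcad and at 94.1 and 87.9 in male Ecad. It is the strongest peak near any of 4 annotated starts, so it was not the same peak in each list. In lines Ma_1057, Ma_1064, Ma_1039, Ma_1456 and Ma_1007 it began 2.05 to 4.14 kb inside the gene. In line Ma_1069 it lay at the 5′ end. At that end, the peak of line Ma_1057 stood at percentile 2.70, and line Ma_1064 had none. Line Ma_1039, a female Ecad line, had none there either, its first peak in the gene beginning 1.25 kb inside. The groups did not overlap. The means were 53.5 ± 17.3 (SD, n = 3) and 86.0 ± 6.25 (SD, n = 6; exact two-sided permutation p = 0.012), and 17% of the 11607 genes with a promoter call separated with female ΔEcad lower. The region at the TSS, chr7:16308112-16314918, holds the printed promoter. It was covered for 1539 to 2335 bp in female ΔEcad lists and for 3820 to 6606 bp in the others, which spread from the 5′ part of the gene over the following 6 kb. An upstream region, chr7:16294281-16300495, mostly beyond the flank, was called in all 9 lists at percentiles of 83.8 to 99.0. Peaks covered 617 to 3094 bp of it in ΔEcad lists and 3578 to 6215 bp in Ecad lists. Of the 12 regions of the family called in all 9 lists, 2 separated with ΔEcad lower, this one and the region at the Ftl1 promoter beside Bax, as did 6.52% of the 8187 such regions genome-wide. In female ΔEcad against the other 6 lines, 2 of the 12 separated with female ΔEcad lower, the Bbc3 TSS and upstream regions, and 22.1% did so genome-wide. A downstream region within Sae1, chr7:16325664-16326978, was called in 7 lists at a mean percentile of 55.4.

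Pmaip1 (ENSMUSG00000024521.8, chr18:66458533-66465565, plus strand) encodes Noxa, which neutralises Mcl1. It had no peak in 8 lists. Line Ma_1062 alone had 2 small peaks of 0.882 kb together, the stronger at percentile 28.9. A promoter called in 1 list was found for 4.79% of all genes. Every list held only peaks with a −log10 q above 5, so a gene without a peak had none past that threshold.

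**Figure D3:**
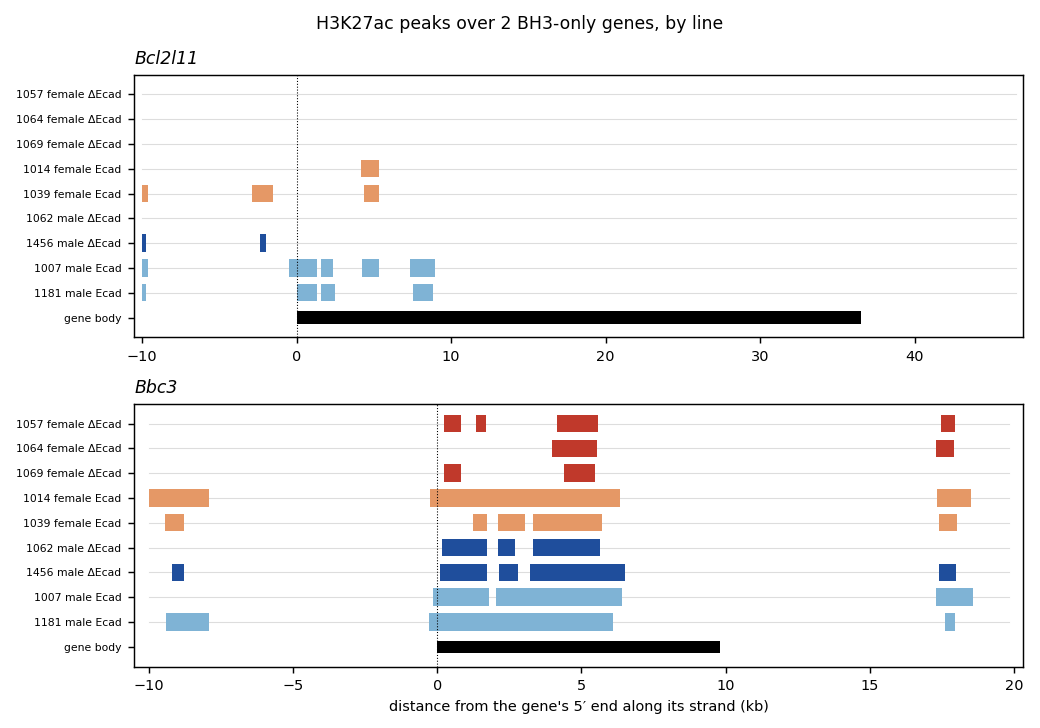
Peaks over Bcl2l11 and Bbc3 (bars, coloured by group, 1 row per line) against the distance in kb from the 5′ end, with the gene body in black. Bcl2l11 rows are empty for the 3 female ΔEcad lines and line Ma_1062, and the Bbc3 domain at the start of the gene is shorter in the female ΔEcad rows.

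Bax (ENSMUSG00000003873.11, chr7:45461697-45466898, minus strand) was covered for 5.73, 4.85 and 4.75 kb in female ΔEcad, 6.83 and 5.86 kb in female Ecad, 5.54 and 5.89 kb in male ΔEcad, and 7.61 and 8.35 kb in male Ecad. ΔEcad lines lay below Ecad lines within each sex. The means were 5.35 ± 0.52 kb (SD, n = 5) and 7.16 ± 1.07 kb (SD, n = 4; exact two-sided permutation p = 0.016, adjusted p over all genes 0.24). Per Mb of list the means were 145 ± 21.4 and 149 ± 40.2 bp (exact permutation p = 0.87). Most of the covered length belonged to a region at the promoter of the neighbour Ftl1, chr7:45456617-45463075, with 3963 to 6234 bp in each list. With peaks near the start of another gene left out, the difference was -0.52 kb (exact permutation p = 0.17). The region at the Bax TSS itself, chr7:45465470-45467232, was called in all 9 lists and covered for 379 bp (line Ma_1039) to 1536 bp (line Ma_1007). Another region, chr7:45463410-45464025, was called in line Ma_1181 alone at percentile 5.93.

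Bak1 (ENSMUSG00000057789.14, chr17:27019810-27029009, minus strand), the second effector, was covered for 3.34, 4.31 and 2.54 kb in female ΔEcad, 4.31 and 5.24 kb in female Ecad, 2.61 and 7.61 kb in male ΔEcad, and 3.72 and 2.90 kb in male Ecad. The groups overlapped except within females, where the highest ΔEcad value lay just under the lowest Ecad value. Its TSS region, chr17:27027313-27029072, was called in all 9 lists at percentiles of 59.2 to 86.1 and lay within 1 kb of a Ggnbp1 start as well. An upstream region, chr17:27037758-27042113, was called in 8 lists, all but line Ma_1069, at a mean percentile of 75.1, and a downstream one, chr17:27011428-27014138, in all 9 at 77.0. The fourth, chr17:27017802-27019747, lay near another Ggnbp1 start, was called in 8 lists and reached percentile 92.5 in line Ma_1456.

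**Figure D4:**
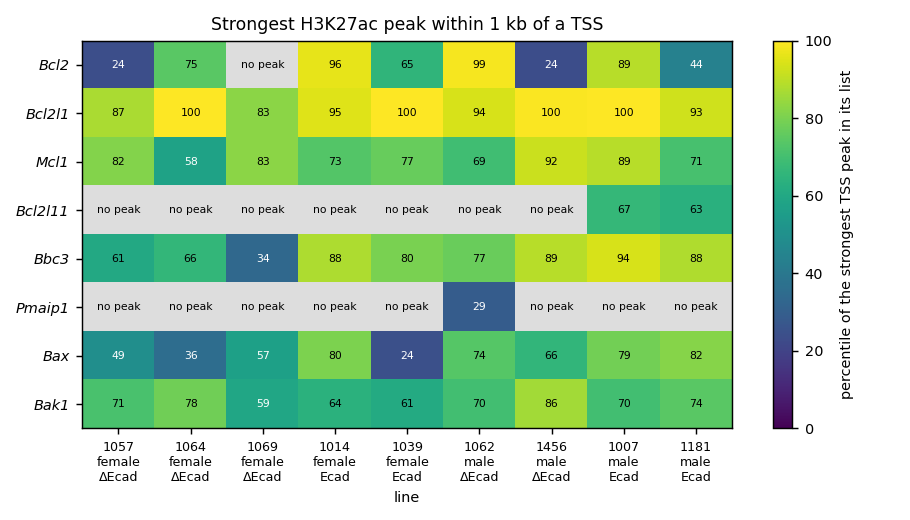
Percentile, within its own list, of the strongest peak within 1 kb of a TSS (colour and number) for each gene and line, with grey for no peak. Bcl2l1 stands at 83 or above in every line, Bcl2l11 is called in lines Ma_1007 and Ma_1181, and the Bbc3 row is lowest in the 3 female ΔEcad lines.

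Counted over the family, 1 of 8 genes (Bbc3) passed an unadjusted exact permutation p of 0.05 for covered length between female ΔEcad and the other 6 lines, where 26.6% of all genes passed, 25.1% with female ΔEcad lower. The median difference over the 8 genes was -1.95 kb and that over all genes -0.68 kb. All 8 differences were below 0, as were 85% of those of all genes. Per Mb of list, however, 4 of the 8 were above 0 (Bcl2l1, Mcl1, Bax and Bak1), where 71.6% of all genes were below 0, and Bbc3 was the single gene of the family past the threshold there too, with 18.7% of all genes. For the TSS percentile, Bbc3 was again the single gene that passed, against 26% of all genes.

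Between ΔEcad and Ecad, 3 of 8 genes passed for covered length (Bcl2l11, Bbc3 and Bax), all lower in ΔEcad, where 17.5% of all genes passed and 17.2% were lower. In each of the 3, the ΔEcad lists lay below the Ecad lists in females and in males alike, as they did for 12.5% of all genes. None of the pro-survival genes passed, with differences of -9.56 kb for Bcl2 (p = 0.20), 0.84 kb for Bcl2l1 (p = 0.90) and 0.33 kb for Mcl1 (p = 0.85, exact permutation tests). Per Mb of list, 2 passed, Bcl2l11 lower and Bcl2l1 higher in ΔEcad, where 10.1% of all genes passed, 7.99% lower and 2.07% higher. Bcl2l1 had 1046 ± 141 bp per Mb in ΔEcad (SD, n = 5) and 791 ± 136 bp per Mb in Ecad (SD, n = 4; exact permutation p = 0.040). For the TSS percentile 0 of 8 passed, against 19.7% of all genes, the nearest being Bbc3 at p = 0.079 in the exact permutation test.

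Between female and male lines, 0 of 8 genes passed for covered length in the exact permutation test, where 12.2% of all genes passed, and the differences ran from -3.05 kb (Bcl2l1) to 1.95 kb (Mcl1). For the TSS percentile 0 of 8 passed, against 12.6% of all genes. Promoter calls could not be told apart by Fisher's exact test in any of the 3 comparisons, because 5 of the 8 genes were called in every list and the calls of Bcl2, Bcl2l11 and Pmaip1 were too few or too many to pass, the smallest possible p being 0.083 (Bcl2l11, 3 lines against 6). For the genotype difference set against sex, 0 of 8 lay under 0.05, where 8.24% of all genes did. After adjustment over all genes, 0 genes passed in any of these comparisons.

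Genes outside the family moved with the groups as well. The housekeeping gene Actb had 5.0 kb on average in female ΔEcad lines and 8.14 kb in the others (exact permutation p = 0.012), and Gapdh had 4.49 and 6.84 kb (exact permutation p = 0.14). Of the 5 melanocyte markers, 3 were lower in female ΔEcad lines: Sox10 with 16.2 against 23.6 kb (exact permutation p = 0.012), Dct with 7.92 against 24.8 kb (exact permutation p = 0.024) and Pmel with 3.21 against 12.4 kb (exact permutation p = 0.012). The same 3 were lower in ΔEcad than in Ecad. Of the 5 markers of other cell types, Pecam1 and Pdgfra were lower in ΔEcad than in Ecad, while Krt14 and Krt5 had 0 kb in every list. Ptprc went the other way, with 0.764 kb in line Ma_1057, 1.82 kb in line Ma_1069 and 0 kb in the other lists. The part of these shifts in the results on the family was not tested.

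List length was also set equal by keeping the 20741 strongest peaks of each list. Bbc3 then differed by -4.71 kb in female ΔEcad (exact permutation p = 0.024). Between ΔEcad and Ecad, the differences were -2.59 kb for Bcl2l11 (exact permutation p = 0.0079), -4.63 kb for Bbc3 (exact permutation p = 0.024) and -1.56 kb for Bax (exact permutation p = 0.040). The same genes passed as with the whole lists. The share of all genes that pass at equal length was not computed, so these passes have no background beside them.

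**Figure D5:**
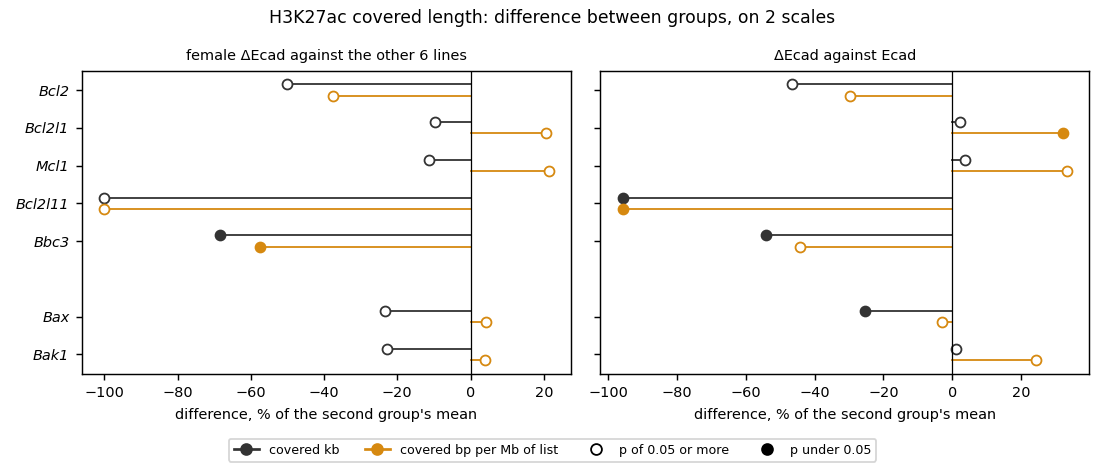
Difference between group means as a percentage of the second group's mean (x axis) for covered kb (dark) and covered bp per Mb of list (orange), with filled points for an exact permutation p under 0.05. Bcl2, Bcl2l11 and Bbc3 lie left of 0 on both scales in both panels. Bcl2l1, Mcl1 and Bak1 lie right of 0 per Mb of list in both panels, with a filled point only for Bcl2l1 in ΔEcad against Ecad. Pmaip1, with a peak in 1 list, is not drawn.

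The 37 regions that touched the 8 windows included 12 called in all 9 lists and 8 called in a single list. Over all 59668 merged regions, the shares were 13.7% and 34%. None of the 37 was called in every list of a group and in no list of its counterpart, for any of the 3 comparisons. Of all regions, 0.434% were called in every female ΔEcad list and none of the other 6, and 1.34% the other way round. The shares were 0.00335% and 0.551% between ΔEcad and Ecad, and 0.0268% and 0.146% between female and male lines. Of these 37 regions, 10 held or adjoined a TSS of their own gene and 4 lay within 1 kb of the start of another gene.

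Other genes of the pathway were read in the same way. Of 31 genes, 15 promoters were called in all 9 lists, 8 in some and 8 in 0, beside 21.1%, 31.8% and 47.1% of all genes. Those called in some lists included Bid (7), a BH3-only protein cut by caspase 8, Bmf (8), a BH3-only protein linked to anoikis, Bok (2), Diablo (2), Tnfrsf10b (1) and Casp8 (7). Diablo was called in both male Ecad lists alone.

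Between female ΔEcad and the other lines, 8 of the 31 had a lower and 1 a higher covered length at an exact permutation p under 0.05. Bok, at 2.99 kb in female ΔEcad and 0.599 kb in the others (exact permutation p = 0.036), was the one that was higher. Between ΔEcad and Ecad, 4 were lower and 0 higher. They included Bad, Casp9 and Ddit3, which are named after their values were seen. Casp9, the initiator caspase of the mitochondrial route, had 1.62 kb in ΔEcad and 3.70 kb in Ecad (exact permutation p = 0.016). Of all genes, 25.1% were lower and 1.47% higher in the first comparison, and 17.2% and 0.273% in the second.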

How the data were processed

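H3K27ac ChIP–seq of 9 lines (13 samples with 4 inputs, which had no list) was analysed from the deposited peak lists, 1 per line and not pooled. Reads were aligned by the authors to GRCm38 with Bowtie2, and the submitters' processing notes name Bowtie2 2.4.5, MACS2 2.2.7.1 and deepTools. The labels give 1 input for each combination of sex and genotype. Which input served as control is not given in the sources used here. If the lines of a group shared an input, its part cannot be told apart from the group and was not tested. In nearly all peaks the deposited score equalled the −log10 q multiplied by 10 and cut to a whole number. Fold enrichment was deposited on a linear scale as a ratio, and the authors' −log10 p-value and −log10 q-value belong to each peak. Peaks were ranked by −log10 q (column 9). The lists hold no read counts, so the depth of each library is unknown. Counting intervals are therefore not given, and a deeper library can give a longer list.

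Genes and starts came from GENCODE M21, whose chromosome names and build match the lists. The 8 genes, the pathway lists and the tests were chosen with earlier results of these data known. Overlapping or touching peaks of all lists were joined into regions, called in a list with 1 bp of overlap. Group differences were tested over lines by exact two-sided permutation of the difference between means for all genes with a peak, with Benjamini-Hochberg adjustment over all of them, and promoter calls that varied between lists by Fisher's exact test. The smallest p was 0.012 for 3 lines against 6 and 0.0079 for 5 against 4, while 3 against 2 cannot go below 0.10 and 2 against 2 not below 0.33. The named genes were all 8 members, pathway genes called at the promoter in some lists (some are not reported here), for each member the regions at its TSS and the 3 others of highest mean percentile, and the 3 genes on other chromosomes whose covered length correlated best with that of the member of highest coefficient of variation (mean of at least 2 kb). Sequences came from RefSeq on GRCm38.p6. Scripts ran in Python 3.11.15 with numpy 2.4.6 and scipy 1.17.1 and were tested on simulated data. Alternatives varied the window, the promoter distance, the length and strength of the lists, the scale, neighbouring promoters and the lines included.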

Additional observations from a re-analysis of the deposited data

Results flagged for a closer look

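Dixon's criterion, which by chance marks about 1 in 20 groups, was applied to the covered length and the TSS percentile of each gene in the Ecad, ΔEcad, female and male lines and in the 6 lines other than female ΔEcad. It marked 10 of 74 groups, many of which share lines. Where every other value of a group is 0, as in the marks for Pmaip1 and Bcl2l11, any single value above 0 is marked. The rate of 1 in 20 does not apply to those. Line Ma_1456 stood apart from the other ΔEcad lines for Mcl1, with 13.3 kb against 8.14 to 8.91 kb, and for Bcl2l11, with 0.702 kb against 0 kb in the other 4. Line Ma_1062 stood apart for Pmaip1 among the ΔEcad lines, the male lines and the 6 lines other than female ΔEcad, with 0.882 kb and a TSS peak at percentile 28.9 where the others had no peak. Line Ma_1039 stood apart for the Bax TSS peak, at percentile 24.4 against 78.6 to 82.0 in the other Ecad lines and 65.9 to 82.0 in the other 5 lines outside female ΔEcad.

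For Mcl1, every female ΔEcad list lay below every female Ecad list and every male ΔEcad list above every male Ecad list, and the differences between genotypes differed between the sexes by -9.11 kb (exact two-sided permutation p = 0.050, not under the threshold).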

How the results depend on the processing

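The call for Bcl2l11 in ΔEcad against Ecad kept its direction and threshold under all 6 alternatives and without any 1 line (exact permutation p of 0.0079 to 0.048). Bbc3 in female ΔEcad kept its call without any 1 line but not with 50 kb flanks (-8.25 kb, exact permutation p = 0.060). Between genotypes, Bbc3 lost its call with no flank (-2.49 kb, exact permutation p = 0.063) and per Mb of list, and without lines Ma_1057, Ma_1064, Ma_1069, Ma_1014, Ma_1062, Ma_1007 or Ma_1181 in turn (p of 0.054 to 0.057). Bax lost its call without lines Ma_1057, Ma_1064, Ma_1069 or Ma_1062 (exact permutation p = 0.057), per Mb of list and with neighbouring promoters left out. The number of genes past 0.05 in female ΔEcad became 2 with 50 kb flanks (Bax and Bak1) and 2 with the stronger 50% of each list (Bbc3 and Bax), and was 1 to 2 without any 1 line. Between genotypes it was 3, and 1 to 3 without any 1 line, with Bcl2l11 in each case and 1 without Ma_1057, Ma_1064, Ma_1069 or Ma_1062. For the TSS percentile it was 1 to 2 in female ΔEcad without any 1 line (2 without Ma_1064 or Ma_1039), 0 to 1 between genotypes (1 without Ma_1039 or Ma_1456) and 0 to 1 between sexes (1 without Ma_1014), and 1 between genotypes with 2 kb from a TSS (Bcl2l11). With at least 50% of a region covered, 1 region was called in every list of a group and none of its counterpart in each of the first 2 comparisons, the Bbc3 TSS region in all 6 lines other than female ΔEcad and the Bbc3 upstream region in all 4 Ecad lines. Without any 1 line this count was 0 to 1 in both (Bcl2l11 regions, without Ma_1062 in the first and without Ma_1456 or Ma_1181 in the second).

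Differences that were not past 0.05 changed sign as follows, per Mb of list unless stated. In female ΔEcad, Bcl2l1 became 181 bp, Mcl1 44.6 bp (0.27 kb with no flank), Bax 5.98 bp and Bak1 3.78 bp, and Bcl2l1 ran from -9.45 to 2.24 kb without any 1 line (above 0 without Ma_1069). Between genotypes, with 50 kb flanks, Bcl2l1 became -4.09 kb, Mcl1 -4.17 kb and Bak1 -5.13 kb (-0.17 kb with no flank); without any 1 line they ran from -2.48 to 4.67 kb, -1.46 to 1.79 kb and -0.84 to 0.44 kb. Between sexes, Bcl2 became 24.3 bp, Bcl2l1 111 bp and Bak1 11.7 bp (0.18 kb with neighbouring promoters left out), and without any 1 line they ran from -4.57 to 3.65 kb, -7.08 to 0.35 kb and -0.80 to 0.87 kb. The cause was not tested. No paired analysis was possible because the labels do not pair the lines. The precision is limited by 2 or 3 lines in each group and by lists of unknown depth.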
